A study of Homo sapiens with 6 samples.

Results

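The genes described here are 9 enzymes that make the nucleotides of RNA and DNA, namely CAD, UMPS, RRM1, RRM2, DUT, TYMS, TK1, DCK and NME1. They were chosen by gene name, and every transcript listed under one of these names was taken, which gave 9 of 31768 genes and 76 of 153848 transcripts. All 9 genes and 57 of the 76 transcripts passed the count filters, and the kept transcripts held at least 99.0% of each gene's counts. RNA came from HMC3, an immortalized human microglial cell line, cultured in 3 independent control cultures (0 Gy) and in 3 independent cultures exposed to 15 Gy of X-rays. All 6 were collected after 24 h and sequenced by Oxford Nanopore long-read RNA sequencing of amplified full-length cDNA, with no other treatment, time or line. The single comparison asks which transcripts change in these cells after radiotherapy, and here it is read for the enzymes of nucleotide synthesis.

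Cells obtain nucleotides by building them from small precursors, the de novo route, and by recovering nucleosides, the salvage route. CAD, a protein with 3 linked enzyme activities, starts the pyrimidine ring, and UMPS completes it as uridine monophosphate. Ribonucleotide reductase, with its large subunit RRM1 and its small subunit RRM2, turns ribonucleotides into the deoxyribonucleotides of DNA. DUT splits dUTP, which keeps uracil out of DNA and supplies dUMP, and TYMS methylates dUMP to thymidylate. TK1 and DCK phosphorylate recovered thymidine and deoxycytidine, and NME1 is a nucleoside diphosphate kinase that makes triphosphates. Transcripts of TK1, TYMS, RRM2 and DUT are known to rise in cells that enter S phase, and p53, which radiation activates, induces RRM2B, an alternative small subunit of the reductase.

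The short sequences below mark where the transcripts of 3 members part, since the isoform results turn on these positions. Each run holds the last 15 bases of the upstream part in lower case and the first 15 of the downstream part in capitals, on the plus strand of GRCh38 as in GENCODE 29. In UMPS, exon 1 (ending with chr3:124730613-124730627) joins exon 2 (starting with chr3:124735093-124735107) in ENST00000232607 and exon 3 (chr3:124737568-124737582) in ENST00000462091 and ENST00000497791. Exon 2 has 154 bases. ENST00000460034 and ENST00000467167 hold a further exon after exon 1, which leads to exon 3 in the former and to exon 2 in the latter.
UMPS exon 1 to exon 2: cgtcttctgagtcagGTTGCAGATATTTTA
UMPS exon 1 to exon 3: cgtcttctgagtcagGAACTAAGCGTCTTG
In DCK, exon 4 (chr4:71023692-71023706) joins exon 5 (chr4:71025816-71025830), which has 116 bases, in ENST00000286648 and exon 6 (chr4:71026665-71026679) in ENST00000504730.
DCK exon 4 to exon 5: caagccactccagagACATGCTTACATAGA
DCK exon 4 to exon 6: caagccactccagagAACCAACTTCGATTA
In DUT, a shared second part (chr15:48332268-48332282) follows an upstream first exon (chr15:48331781-48331795) in ENST00000331200 and follows, without a splice, the start of a downstream first exon (chr15:48332253-48332267) in ENST00000455976.
DUT upstream first exon to shared exon: cggcgccggggccggAGACACCCGCCATTT
DUT downstream first exon into shared exon: tgccctgctctgaagAGACACCCGCCATTT
All lower-case bases lie in coding sequence of the transcripts they were read from. The upstream form of DUT, known as the mitochondrial enzyme, has 252 codons in ENST00000331200, and the downstream form, known as the nuclear enzyme, has 164 codons in ENST00000455976.

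The 6 libraries held between 4870897 and 9082409 counts, and counts of the members ranged from 62 (TYMS, control 1) to 9660 (NME1, control 2) per library. Levels are given as CPM, counts scaled to an equal library size. TMM factors, which correct the library sizes so that most genes compare evenly, ran from 0.793 to 0.928 in the controls and from 1.09 to 1.24 in the irradiated libraries. The median log2 fold change of the 11118 genes tested was 0.08 with these factors and 0.53 with library totals alone, so every change is to be read against that shift. CDKN1A and MDM2, p53 targets that check the treatment, rose by log2 fold changes of 1.77 and 1.64 (edgeR adjusted p = 6.3e-07 and 0.000121). Of 12 microglia and macrophage markers only CD68 passed the filters, 6 (among them CX3CR1, P2RY12 and TMEM119) had no count in any library, and the summed level of the list was 23.3 to 34.8 CPM in the controls and 31.8 to 37.2 CPM in the irradiated libraries. Fibroblast and pericyte markers summed to 366.3 to 402.2 CPM in the controls and to 344.9 to 422.3 CPM after irradiation, and those of astrocytes and neurons to 38.4 to 55.6 and 34.5 to 47.3 CPM. In whole cultures, fewer cells of a kind and less RNA per cell cannot be told apart.

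After irradiation, 3 of the 9 members were lower and 1 was higher at an adjusted p under 0.05 in edgeR's quasi-likelihood test. NME1, TK1 and DUT fell and TYMS rose, while RRM1, RRM2, DCK, CAD and UMPS did not pass. Over all genes tested, 14.1% were called lower and 11.6% higher. Differential expression in the study also required a log2 fold change beyond 1 in size, and no member reached that size in edgeR or in DESeq2, against 5.70% of all genes that passed both limits. At an unadjusted p under 0.05 in edgeR there were 4 members lower and 1 higher. The share of all genes at that limit is not given here, so this count says nothing particular to the members. The control and irradiated values did not overlap in 7 of the 9 members, against 42.7% of all genes. The median log2 fold change of the members was -0.29 with TMM factors and 0.16 with library totals alone, below the median of all genes under both scalings.

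**Figure D1:**
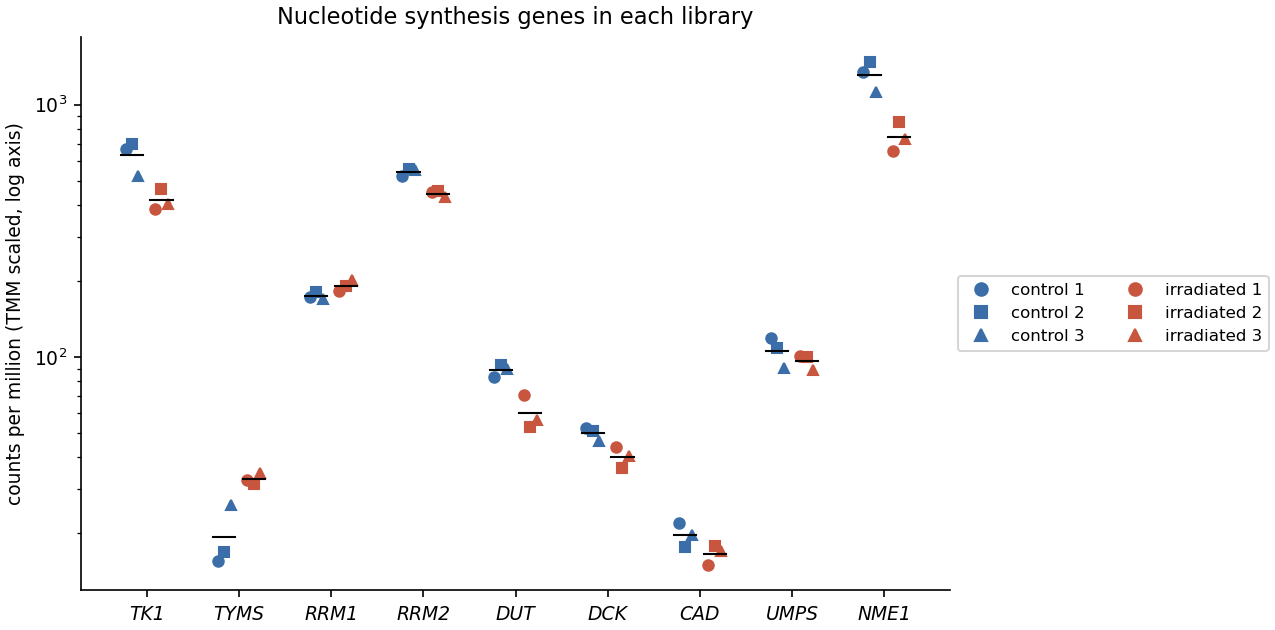
Level of the 9 nucleotide synthesis genes in CPM (TMM scaled, log axis) in each of 3 control (blue) and 3 irradiated (red) libraries, with the group mean as a black line. The groups do not overlap in NME1, TK1, DUT, RRM2, DCK, RRM1 and TYMS, and TYMS and RRM1 are the members with higher irradiated values.

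Neither enzyme of the pyrimidine ring passed the test. CAD (chromosome 2, 27217390 to 27243943) was measured at 22.1, 17.6 and 19.7 CPM in controls 1, 2 and 3 and at 15.0, 17.8 and 17.0 CPM in irradiated cultures 1, 2 and 3. Its groups overlapped, and its log2 fold change was -0.25 ± 0.20 (SE, n = 3 per group, edgeR adjusted p = 0.383). When the trend of counts on transcript length was removed, CAD had a log2 fold change of -0.58 and narrowly missed the threshold (edgeR adjusted p = 0.0523). UMPS (chromosome 3, 124730366 to 124749273) was at 118.9, 109.1 and 90.3 CPM in the controls and at 100.5, 99.6 and 89.1 CPM after irradiation. Its groups overlapped too, with a log2 fold change of -0.14 ± 0.13 (SE, edgeR adjusted p = 0.49), although its transcripts moved in opposite directions, as given further on.

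The subunits of ribonucleotide reductase had log2 fold changes of opposite sign with TMM factors, and neither passed the test in edgeR. RRM1 (chromosome 11, 4094707 to 4138876) stood at 172.3, 180.7 and 169.1 CPM in the controls and at 182.1, 191.6 and 201.8 CPM in the irradiated libraries. All 3 irradiated values lay above all 3 controls, yet the log2 fold change was 0.14 ± 0.11 (SE, edgeR adjusted p = 0.375). RRM2 (chromosome 2, 10120698 to 10131419), the subunit whose level limits the reductase in dividing cells, stood at 520.3, 557.8 and 551.2 CPM in the controls and at 450.2, 453.6 and 429.1 CPM after irradiation. Every irradiated value lay below every control. The log2 fold change of -0.29 ± 0.11 (SE) missed the threshold in edgeR (adjusted p = 0.0607) and passed it in DESeq2 (adjusted p = 0.0127) and when the trend of counts on transcript length was removed (log2 fold change -0.46, edgeR adjusted p = 0.00258).

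RRM2B could not be tested among the 11118 genes because fewer than 2 of its transcripts passed the filter. With all transcripts summed and a filter on gene counts alone, it was at 3.16, 3.74 and 3.33 CPM in the controls and at 5.52, 5.31 and 7.37 CPM after irradiation. The 3 irradiated values were the higher ones, with a log2 fold change of 0.82 ± 0.30 (SE, edgeR adjusted p = 0.059), which missed the threshold.

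The enzymes on the way to thymidylate moved apart. DUT (chromosome 15, 48331011 to 48343373) fell from 83.3, 92.9 and 89.7 CPM in the controls to 70.5, 52.9 and 56.1 CPM in the irradiated libraries. The groups did not overlap, irradiated culture 1 lay nearest the controls, and the log2 fold change was -0.57 ± 0.14 (SE, edgeR adjusted p = 0.00889). Without irradiated culture 3 the call was lost (edgeR adjusted p = 0.0525).

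TYMS (chromosome 18, 657604 to 673578) rose from 15.6, 16.8 and 25.8 CPM in the controls to 32.6, 31.3 and 34.8 CPM after irradiation. Control 3 was the control nearest the irradiated libraries, and the irradiated values differed little among themselves. The log2 fold change was 0.74 ± 0.21 (SE, edgeR adjusted p = 0.0153), a rise of 1.67-fold. TYMS rests on 62 to 272 counts per library, and its call was lost without control 1 (edgeR adjusted p = 0.0542), control 2 (0.0586) or irradiated culture 3 (0.0616), while the direction held in each. ENOSF1, which runs on the opposite strand (chromosome 18, 670324 to 712676) and overlaps the end of TYMS, did not reach the main test either. Summed over all its transcripts it was at 5.11, 5.23 and 8.55 CPM in the controls and at 11.4, 11.3 and 14.0 CPM after irradiation, a log2 fold change of 0.93 ± 0.26 (SE, edgeR adjusted p = 0.0208). The sources used here do not say whether strand was used in counting, so reads of these overlapping genes cannot be told apart where they meet.

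Of the salvage kinases, TK1 fell and DCK did not pass. TK1 (chromosome 17, 78174075 to 78187233, minus strand) was at 670.3, 700.8 and 523.5 CPM in the controls and at 386.3, 463.9 and 402.9 CPM after irradiation. The groups did not overlap, although control 3 lay far below the other controls. The log2 fold change was -0.60 ± 0.13 (SE, edgeR adjusted p = 0.00435). DCK (chromosome 4, 70992538 to 71030914) was at 52.4, 51.1 and 46.3 CPM in the controls and at 43.9, 36.2 and 40.6 CPM after irradiation, with a log2 fold change of -0.31 ± 0.15 (SE, edgeR adjusted p = 0.141).

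NME1 (chromosome 17, 51153536 to 51162428) had the largest absolute log2 fold change among the members with TMM factors over all 6 libraries. TYMS had a larger one with the length trend removed, with library totals alone, without control 3 and, narrowly, without irradiated culture 1 (0.748 against -0.735). NME1 fell from 1343, 1478 and 1126 CPM in the controls to 655.3, 852.1 and 728.3 CPM in the irradiated libraries, with no overlap. The log2 fold change was -0.82 ± 0.14 (SE, edgeR adjusted p = 0.000909), and the controls were 1.76-fold higher. It was the only member called lower under every alternative tried, library totals alone included (log2 fold change -0.36, edgeR adjusted p = 0.00435). NME2, its neighbour on chromosome 17 and a paralog with the same activity, fell from 1913, 2168 and 1664 to 802.4, 1096 and 965.8 CPM (log2 fold change -1.004 ± 0.14 SE, edgeR adjusted p = 0.000478). The read-through gene NME1-NME2, whose transcripts span both, also fell with TMM factors (-0.53 ± 0.12 SE, edgeR adjusted p = 0.00398). With library totals alone it was not called (log2 fold change -0.086, edgeR adjusted p = 0.415). Reads of these 3 overlapping or near-identical genes could have been divided between them, so their separate sizes are uncertain.

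**Figure D2:**
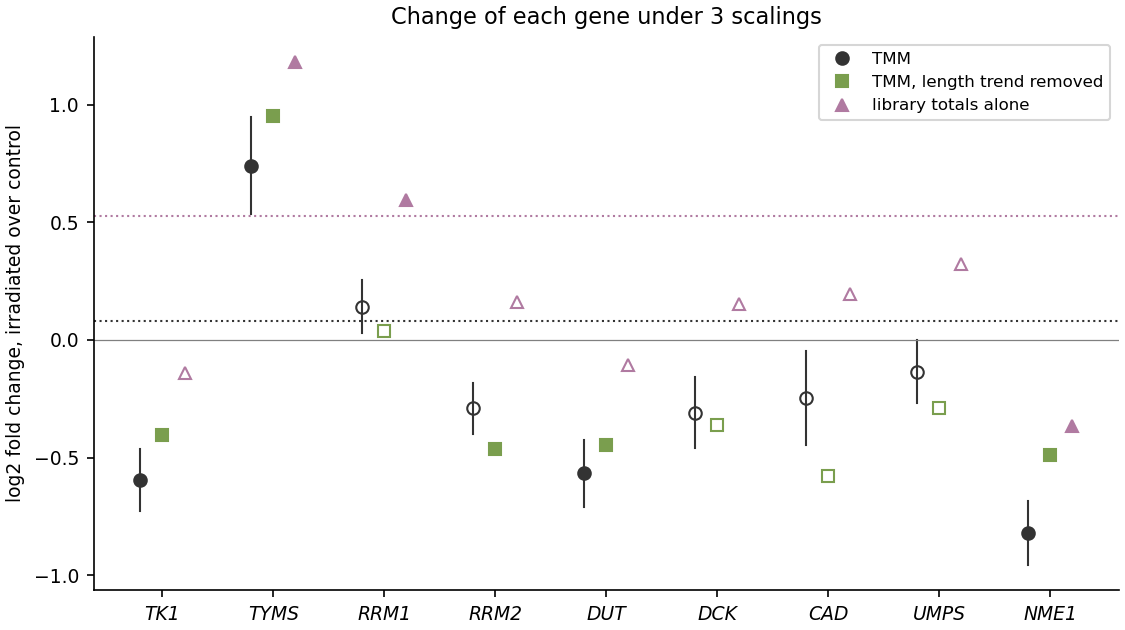
Log2 fold change (irradiated over control) of each member with TMM factors (black circles, bars of 1 SE), with the length trend also removed (green squares) and with library totals alone (purple triangles). Filled symbols passed an adjusted p under 0.05, dotted lines give the median of all genes at 0.08 (TMM) and 0.53 (library totals), and TYMS lies above, and NME1, TK1 and DUT lie below, the line of each scaling.

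The scaling of the libraries decides several signs against 0, though not the position against the median gene. With library totals alone, RRM2, DCK, CAD and UMPS had log2 fold changes of 0.16, 0.15, 0.20 and 0.32, none of them called, and all below the median of 0.53. TK1 and DUT then stood at -0.14 and -0.11 and were no longer called (edgeR adjusted p = 0.179 and 0.622). TYMS at 1.18 and RRM1 at 0.59 were called higher, and TYMS then passed both limits. Over all 11118 genes tested, 3643 were called higher and 356 lower with library totals alone.

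Divided by the mean length of its transcripts, the level of each member in the controls gave the order NME1, TK1, RRM2, RRM1, DUT, UMPS, DCK, TYMS and CAD. The controls ran from 1243 ± 168 CPM per kilobase (SD, n = 3) for NME1 to 2.79 ± 0.32 for CAD, with TK1 at 387 ± 58.1 and RRM2 at 158 ± 5.83. The ranges of neighbouring members in this order did not overlap among the controls. After irradiation TYMS at 21.7 ± 1.17 CPM per kilobase stood above DCK at 15.3 ± 1.47, so that this pair changed places, and DUT at 31.5 ± 4.92 overlapped UMPS at 29.7 ± 1.95.

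At the transcript level, 19 of the 57 member transcripts were lower and 9 were higher at an adjusted p under 0.05 in edgeR, against 10.7% and 8.54% of all transcripts. Both limits were passed by 5 of them, 3 lower and 2 higher, against 7.69% of all transcripts. Of these 28 calls, 9 held when any single library was left out, namely the 4 most abundant NME1 transcripts, NME1 ENST00000512768, TK1 ENST00000301634, DUT ENST00000455976, TYMS ENST00000323224 and UMPS ENST00000497791. Without control 1 there were 10 lower and 3 higher, without control 2 there were 9 and 4, without irradiated culture 1 there were 10 and 3, and without irradiated culture 3 there were 8 and 4. The transcripts of one gene are not independent measurements. The average read length reported in the paper is shorter than the most abundant transcript of each member. Reads could therefore have been divided between transcripts that share sequence, and this was not tested. In RRM2, ENST00000360566, ENST00000652660, ENST00000304567 and ENST00000641198 had counts within 4.71% of each other in every library, and DCK ENST00000286648 and ENST00000504952 within 2.08%.

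**Figure D3:**
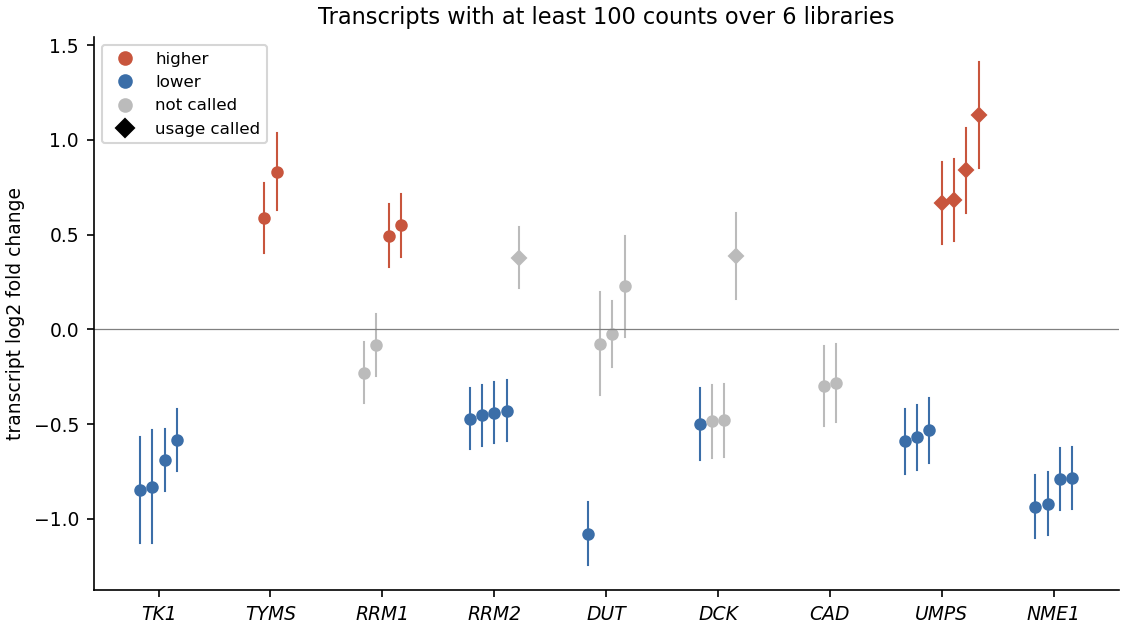
Log2 fold change (irradiated over control, bars of 1 SE) of the 36 member transcripts with at least 100 counts over the 6 libraries, coloured by the call at an adjusted p under 0.05 in edgeR, with diamonds where usage within the gene was called. UMPS has transcripts on both sides of 0, and 1 DUT transcript lies at -1.08 while the others lie between -0.08 and 0.23.

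Transcripts of TK1 and NME1 moved as their genes did. In TK1, 4 of 6 transcripts were lower and none was higher with TMM factors, and none of the 4 was called with library totals alone (log2 fold changes from -0.346 to -0.076, edgeR adjusted p from 0.138 to 0.604). DESeq2 did not call the rarer ENST00000586613 and ENST00000590862 (adjusted p = 0.079 and 0.117). The main transcript ENST00000301634 fell from 385.2, 420.9 and 298.8 CPM to 208.6, 253.8 and 221.6 CPM (log2 fold change -0.69 ± 0.17 SE, edgeR adjusted p = 0.000488). It held 57.2% ± 0.47 (SD, n = 3) of the gene's counts in the controls and 55.6% ± 0.56 after irradiation. In NME1, 6 of 9 were lower, and the leading ENST00000393196 had a log2 fold change of -0.94 ± 0.17 (SE, edgeR adjusted p = 1.02e-06). The NME1 transcripts past both limits were rare, ENST00000480143 with 38 counts and ENST00000512768 with 18 counts over all libraries. Both transcripts of TYMS that carry most of its counts rose, ENST00000323274 by 0.59 ± 0.18 and ENST00000323224 by 0.83 ± 0.20 (log2 fold change ± SE, edgeR adjusted p = 0.0117 and 0.000605). DESeq2 did not call ENST00000323274 (adjusted p = 0.072). Its edgeR call was lost without control 1, control 2, irradiated culture 1 or irradiated culture 3. CAD had 2 kept transcripts, neither of them called.

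In DUT, 1 of 6 transcripts was called. ENST00000455976, the downstream form, fell from 62.8, 69.9 and 51.8 CPM in the controls to 33.4, 27.3 and 26.4 CPM after irradiation. Its groups were far apart, with a log2 fold change of -1.08 ± 0.17 (SE, edgeR adjusted p = 9.32e-09). ENST00000559540, with 170 counts over all libraries, also begins within the downstream first exon. It was not called (log2 fold change -0.08 ± 0.27 SE, edgeR adjusted p = 0.886). ENST00000331200, the upstream form, was at 13.9, 19.6 and 26.2 CPM in the controls and at 24.3, 17.4 and 18.5 CPM after irradiation, with overlapping groups and a log2 fold change of -0.02 ± 0.17 (SE, edgeR adjusted p = 0.946).

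The isoform fraction is the share of a gene's counts that falls on one transcript, and dIF is its irradiated minus its control mean. ENST00000455976 held 74.7%, 72.3% and 57.4% of DUT counts in the controls and 48.2%, 52.3% and 48.1% after irradiation, a dIF of -18.6 percentage points. ENST00000331200 held 16.6%, 20.3% and 29.1% in the controls and 35.1%, 33.3% and 33.7% after irradiation, a dIF of 12.1 percentage points. The groups did not overlap in either, and control 3 lay between the other controls and the irradiated libraries. Neither was called in edgeR's test of usage within the gene (adjusted p = 0.193 and 0.0796). Without control 3 both were called (adjusted p = 0.016 and 0.00228), and limma's diffSplice called ENST00000455976 (adjusted p = 0.000766) and not ENST00000331200 (0.173).

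The usage test called 6 of the 57 member transcripts, against 4.44% of all transcripts, and none passed the study's limit for a switch, an absolute dIF of at least 10 percentage points, which 0.404% of all transcripts passed. At an unadjusted p under 0.05 there were 21, a count without a share over all transcripts beside it and so not particular to the members. With limma's diffSplice 1 transcript, DUT ENST00000455976, passed both the adjusted p and the dIF limit. The 6 were 4 transcripts of UMPS, 1 of RRM2 and 1 of DCK, and UMPS ENST00000497791 alone was called whichever library was left out. Without irradiated culture 1 it was the only one of the 6 still called, without control 1 or control 2 there were 2, without irradiated culture 3 there were 4, and without control 3 all 6 were called among 13 member transcripts.

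All 7 UMPS transcripts kept were called at the transcript level with TMM factors, 3 lower and 4 higher. With library totals alone the 3 lower ones were no longer called (log2 fold changes from -0.083 to -0.026, edgeR adjusted p from 0.761 to 0.927), while the 4 higher ones were. DESeq2 did not call ENST00000460034 and ENST00000462091 (adjusted p = 0.0849 and 0.091). ENST00000232607, which codes the full enzyme of 480 codons, fell from 34.2, 31.2 and 23.1 CPM to 19.7, 22.6 and 18.3 CPM (log2 fold change -0.53 ± 0.17 SE, edgeR adjusted p = 0.0144). Irradiated culture 2 lay just below control 3, and the other values were further apart. ENST00000467167 and ENST00000479719, annotated as targets of nonsense-mediated decay, fell alongside ENST00000232607 by 0.57 and 0.59 on the log2 scale (edgeR adjusted p = 0.00792 and 0.00589). Their counts were within 4.68% and 9.59% of those of ENST00000232607 in every library. Reads shorter than the UMPS transcripts could have been divided between them, so the separate size of each UMPS transcript change is uncertain. The 4 transcripts that rose are also annotated as targets of nonsense-mediated decay, and each was higher in all 3 irradiated libraries than in all 3 controls. ENST00000497791 rose from 2.78, 2.39 and 2.73 CPM to 6.57, 6.05 and 4.76 CPM (log2 fold change 1.13 ± 0.28 SE, edgeR adjusted p = 0.000813) and passed both limits. ENST00000474588, ENST00000460034 and ENST00000462091 rose by log2 fold changes of 0.84, 0.68 and 0.67 (edgeR adjusted p = 0.00209, 0.0123 and 0.0152). The usage test gave these 4 adjusted p-values of 0.000835, 0.0013, 0.00596 and 0.00737, with dIF of 3.61, 5.29, 4.89 and 4.81 percentage points.

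Of the 4 rising UMPS transcripts, ENST00000460034, ENST00000462091 and ENST00000497791 lack the 154 bases of exon 2. This grouping was made after the values were seen. Together they held 11.6%, 12.6% and 19.3% of UMPS counts in controls 1, 2 and 3 and 30.1%, 25.7% and 27.7% in irradiated cultures 1, 2 and 3. Control 3 was again the control nearest the irradiated libraries, and the groups did not overlap. The difference was 13.3 percentage points (two-sided exact permutation p = 0.1, the smallest that 3 against 3 allows), and 15.3 when counts were divided by transcript length. Each grouped transcript already had a higher share in every irradiated library, so the grouping settled that p-value in advance and it adds no support.

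In DCK, ENST00000504730 skips exon 5, as in the junction shown above. It held 9.57%, 11.4% and 13.6% of the gene's counts in the controls and 20.4%, 17.4% and 20.4% after irradiation, without overlap. Its dIF was 7.89 percentage points (edgeR usage adjusted p = 0.0291), while its own level did not pass (log2 fold change 0.39 ± 0.23 SE, edgeR adjusted p = 0.242). Of the other 3 kept DCK transcripts ENST00000503359 was called lower (log2 fold change -0.50 ± 0.19 SE, edgeR adjusted p = 0.0455). DESeq2 did not call it (adjusted p = 0.0806). When single libraries were left out, its edgeR call held only without control 3 (adjusted p = 0.0045). The 2 with near-identical counts, ENST00000286648 and ENST00000504952, had log2 fold changes of -0.49 and -0.48 (edgeR adjusted p = 0.0559 and 0.0605).

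In RRM2, ENST00000615152 has the same splice junctions as ENST00000360566 and begins 240 bases further downstream. It held 9.50%, 8.12% and 12.2% of RRM2 counts in the controls and 16.6%, 15.9% and 16.6% after irradiation. The groups did not overlap, and the dIF was 6.47 percentage points (edgeR usage adjusted p = 0.00442). At the transcript level, the 4 transcripts with near-identical counts were called lower, with log2 fold changes between -0.47 and -0.43 (edgeR adjusted p between 0.0221 and 0.0411). ENST00000615152 itself was not called (0.38 ± 0.16 SE, adjusted p = 0.0835), and ENST00000485717, a rare transcript with 34 counts over all libraries, was called higher and passed both limits.

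In RRM1, ENST00000533349 and ENST00000533495 rose, from 29.2 ± 2.57 to 41.3 ± 2.80 CPM and from 27.4 ± 2.80 to 40.3 ± 2.62 CPM (SD, n = 3). Their log2 fold changes were 0.49 ± 0.17 and 0.55 ± 0.17 (SE, edgeR adjusted p = 0.0205 and 0.00882). Both are annotated as targets of nonsense-mediated decay, and the first lacks an exon of 178 bases. The coding transcript ENST00000300738 was not called (log2 fold change -0.23 ± 0.16 SE, edgeR adjusted p = 0.345), and none of the 8 RRM1 transcripts passed the usage test in edgeR, with 4 at an unadjusted p under 0.05. In limma's diffSplice ENST00000533349, ENST00000533495 and ENST00000300738 passed it (adjusted p = 0.0305, 0.0111 and 0.0389). In TYMS, the share on ENST00000323224, which lacks exon 4 of 102 bases, was 35.5%, 40.9% and 36.8% in the controls and 41.8%, 42.1% and 43.4% after irradiation. The groups came close without overlapping, and the difference was 4.68 percentage points (two-sided exact permutation p = 0.1). That p-value follows from the lack of overlap and adds no support. The usage test did not call this transcript (edgeR adjusted p = 1).

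**Figure D4:**
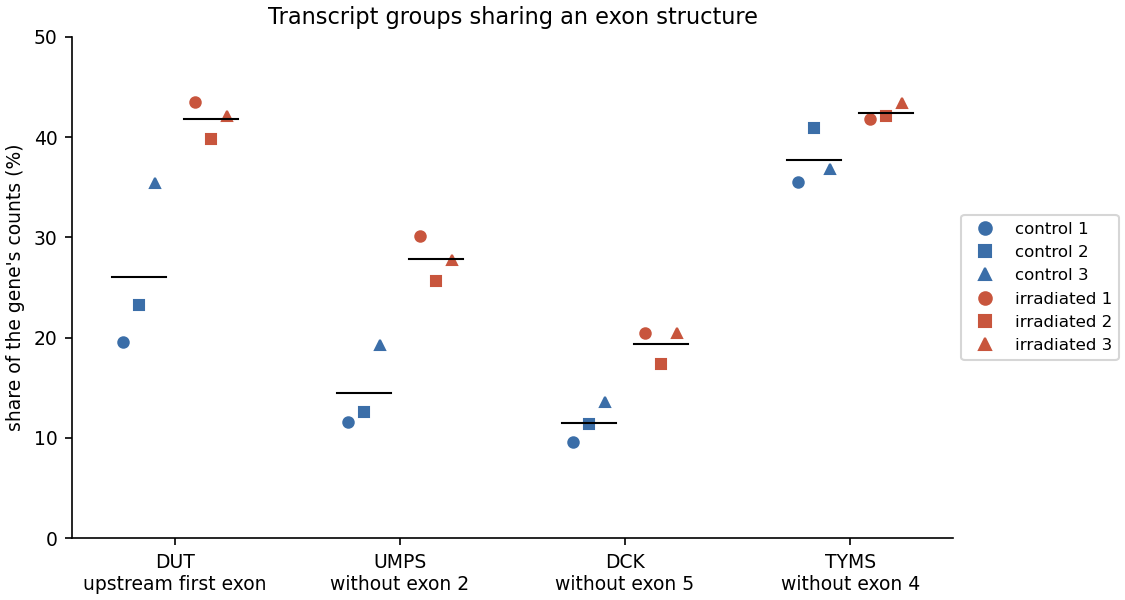
Share of each gene's counts (percent) on transcripts grouped by exon structure in the 3 control (blue) and 3 irradiated (red) libraries, with group means as black lines. The irradiated shares lie above all controls in the 4 genes, by 15.7 percentage points in DUT, 13.3 in UMPS, 7.89 in DCK and 4.68 in TYMS. Control 3 (blue triangle) is the control nearest the irradiated libraries in DUT, UMPS and DCK. The 4 groups were chosen with earlier results of these data known. The share of all transcripts without overlap is not given here, so the separation says nothing particular to these genes.

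For DUT the same grouping gives the share of counts on transcripts that join the upstream first exon to the shared exon, ENST00000331200 and ENST00000558978. It was 19.6%, 23.2% and 35.4% in controls 1, 2 and 3 and 43.4%, 39.8% and 42.1% in irradiated cultures 1, 2 and 3, a difference of 15.7 percentage points (two-sided exact permutation p = 0.1). Both transcripts already had a higher share in every irradiated library, so this p-value too was settled by the grouping and adds no support. Leaving out control 3 raised the difference to 20.4 percentage points, and leaving out control 1 lowered it to 12.5. ENST00000558813 and ENST00000559416, with 26 and 17 counts over all libraries, also begin upstream but lack the grouped junction and were not included.

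RefSeq promoter windows of GRCh38.p14, 250 bases before to 50 after each annotated start, were found for all 9 members, 14 windows in all. One of the 8-base spellings TTTCCCGC, TTTGGCGC, TTTCGCGC or TTTGCCGC, spellings of the site known for E2F factors, was present on either strand in 3 of the 14 windows, 1 each of DUT, TYMS and DCK, and in 3.31% of all 35116 windows. Among the 4 DUT windows it was in the one at the start of the downstream form, at positions -42 and -27 from the RefSeq start, and in none of the 3 windows upstream. These matches, in capitals below, lie within the first exon of ENST00000455976, beginning 52 bases after its GENCODE start. DUT and TYMS are shown because they moved in opposite directions.
DUT E2F stretch (chr15:48332152-48332180): ctgGCGGGAAAtttcggtTTTGGCGCgct
TYMS E2F stretch (chr18:657603-657632): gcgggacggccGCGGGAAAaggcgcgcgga
CCAAT was present in windows of CAD, NME1, RRM1, RRM2 and TK1, 6 of the 14 windows, against 34.6% of all, with 3 copies in 1 RRM2 window and 2 in 1 TK1 window. TTTGAA was in 3 of the 14 windows (DUT, RRM1 and UMPS) against 15.2% of all, and GGGCGG in 9 of the 14 against 45.0%. A match of letters describes the window alone.

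Other genes of nucleotide metabolism were taken in 6 lists of 63 genes, of which 55 were tested, and 22 of these were lower and 7 higher at an adjusted p under 0.05 in edgeR. Their median log2 fold change was -0.32, against 0.08 for all genes. With library totals alone 6 were lower and 16 higher, with a median of 0.13 against 0.53. Over all 11118 genes tested, 14.1% were lower and 11.6% higher with TMM factors. With library totals alone 356 of all genes were lower and 3643 higher. The counts of each list below are to be read beside these. Without control 2, irradiated culture 1 or irradiated culture 3 there were 16 lower and 3 higher, and without control 1 there were 17 and 4. In de novo pyrimidine and CTP synthesis, 2 of 3 fell, and none was called with library totals alone. DHODH, the mitochondrial step between CAD and UMPS, went from 13.0, 12.4 and 11.9 CPM to 6.29, 6.28 and 6.39 CPM (log2 fold change -0.97 ± 0.24 SE, edgeR adjusted p = 0.00904). CTPS1, which makes CTP from UTP, fell by 0.38 on the log2 scale (adjusted p = 0.0308), and CTPS2 was not called (0.07, adjusted p = 0.893).

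Of 13 tested genes of deoxynucleotide and thymidylate supply, 7 were lower and none was higher, against 14.1% and 11.6% of all genes. There was 1 higher at an unadjusted p under 0.05 and none higher in DESeq2, while with library totals alone 2 were lower and 3 higher. DGUOK, the mitochondrial deoxyguanosine kinase, fell by 0.81 on the log2 scale, and DCTPP1, which removes dCTP, fell by 0.75 (edgeR adjusted p = 0.000754 and 0.00117). TXN, the thioredoxin that passes electrons to the reductase, fell by 0.71, and MTHFD1, an enzyme of folate one-carbon metabolism, fell by 0.59 (adjusted p = 0.00107 and 0.00271). SAMHD1, which degrades dNTPs, was at 118.2, 104.5 and 93.4 CPM and then 93.0, 103.0 and 98.2 CPM, with overlapping groups (log2 fold change -0.10 ± 0.13 SE, adjusted p = 0.604).

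Of 12 tested nucleoside mono- and diphosphate kinases, 3 were lower and 3 higher. NME2 fell by 1.004 on the log2 scale (edgeR adjusted p = 0.000478). NME3 and GUK1, the guanylate kinase, rose by log2 fold changes of 0.92 and 0.51 (adjusted p = 0.00341 and 0.0121), so that members of the NME family moved in both directions. With library totals alone, NME2 still fell by 0.55 (adjusted p = 0.00167), and 2 of the 12 genes were lower and 5 higher. In the list of pyrimidine salvage and breakdown, which also holds NT5C2 and NUDT1, enzymes that act mainly on purine nucleotides, 3 of 11 rose and 3 fell, and with library totals alone 4 rose and none fell. The uridine-cytidine kinase UCK1 and the nucleotidase NT5C2 rose (0.82 and 0.51, adjusted p = 0.0033 and 0.0171), and the pyrimidine nucleotidase NT5C3A and NUDT1, which removes oxidized nucleotides, fell by 0.93 and 0.55 (adjusted p = 0.00593 and 0.017).

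Of the tested purine genes, 5 of 11 in the de novo route were lower and 1 higher with TMM factors, and 2 were lower and 3 higher with library totals alone. ADSL fell by 0.83, IMPDH2, the step towards GMP, fell by 0.85, PAICS fell by 0.69 and ATIC fell by 0.46 on the log2 scale (edgeR adjusted p = 0.000759, 0.000792, 0.000889 and 0.0136). The single higher gene was IMPDH1, the isozyme of IMPDH2, which rose by a log2 fold change of 0.76 ± 0.26 (SE, adjusted p = 0.0396) and was named after its value was seen. In purine salvage 2 of 5 were lower, against none lower and 1 higher with library totals alone, namely ADK with a log2 fold change of -0.61 and APRT of -0.58 (adjusted p = 0.00454 and 0.00673), while AMPD2 and PNP did not pass (-0.38 and 0.20, adjusted p = 0.188 and 0.317).

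**Figure D5:**
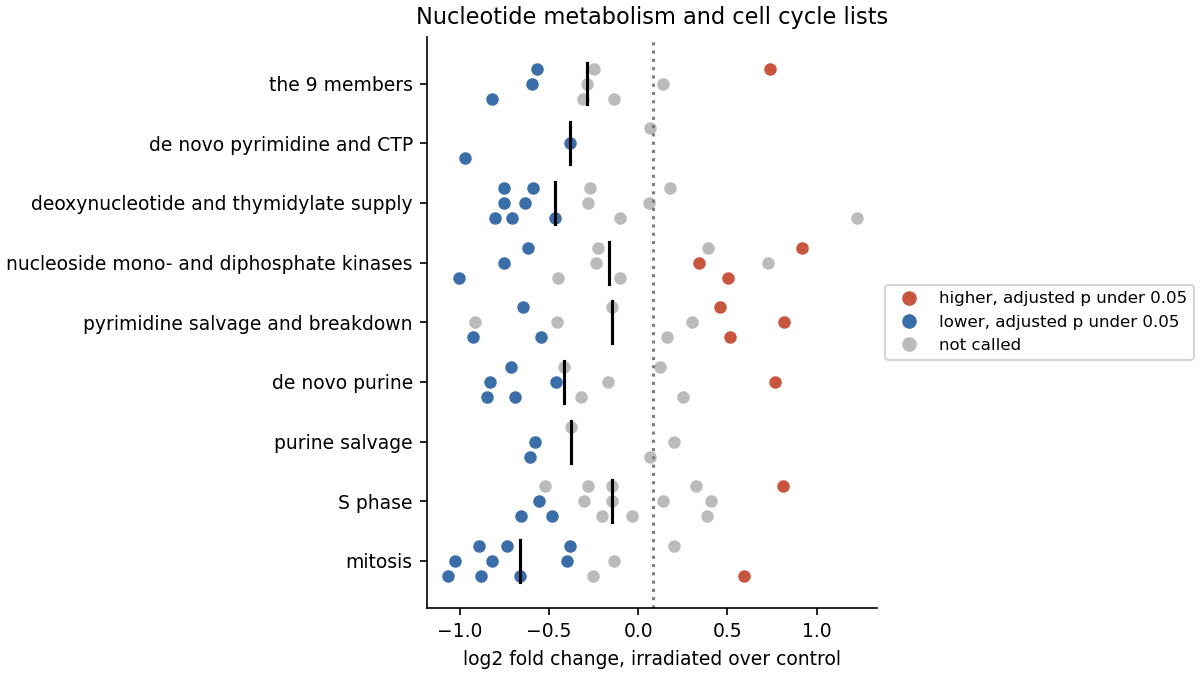
Log2 fold change (irradiated over control, TMM) of each tested gene in the 9 members, 6 lists of nucleotide metabolism and 2 cell cycle lists, coloured by the call at an adjusted p under 0.05 in edgeR, with the list median as a black bar and the median of all genes (0.08) as a dotted line. The medians of all lists shown lie left of the dotted line, from -0.66 in the mitosis list to -0.15 in pyrimidine salvage and the S phase list.

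Lists of the cell cycle are given beside the members. Of 15 tested S phase genes, 3 were lower and 1 was higher, with a median log2 fold change of -0.15. Over all genes tested, 14.1% were lower and 11.6% higher. With library totals alone 4 S phase genes were higher and none lower. The summed level of the list was 1103 to 1160 CPM in the controls and 981.2 to 1002 CPM after irradiation. Of 13 tested mitosis genes, 9 were lower and 1 was higher (median -0.66), against 5 lower and 1 higher with library totals alone, with sums of 2243 to 2595 CPM in the controls and 1470 to 1658 CPM after irradiation. The called S phase genes were UHRF1, a maintenance factor of DNA methylation, which was higher (0.81, edgeR adjusted p = 0.0025), and FEN1, CDC45 and MCM5 of the replication machinery, which fell by 0.66, 0.56 and 0.48 on the log2 scale (adjusted p = 0.00448, 0.00664 and 0.0201). PCNA, the sliding clamp of replication, was not called and had a log2 fold change of -0.04 ± 0.13 (SE, edgeR adjusted p = 0.867). The part of these genes in the changes of the members was not tested.

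The mean profile of the members over the 6 libraries, as log2 CPM centred per gene, was 0.12, 0.14 and 0.07 in the controls and -0.12, -0.10 and -0.12 after irradiation. The genes with the smallest Euclidean distance from it among those with a mean of at least 10 CPM were TFG (0.081), ZFYVE21 (0.085) and TAGLN (0.097), none of them called. These distances describe 6 libraries and carry no test.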

How the data were processed

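RNA of 6 HMC3 cultures, 3 control and 3 irradiated, was compared as irradiated over control. The deposited values are whole-number transcript counts, which the authors made with minimap2, StringTie2, GffCompare and Salmon on GRCh38. Versions, the annotation release, strand handling and any use of molecular identifiers in counting are not stated in the sources used here. Lengths, classes and positions came from GENCODE 29. Genes needed 10 counts in 3 libraries, transcripts 3 counts in 1 library, and genes 2 such transcripts, as in the study's methods. The main test was edgeR 4.0.16 (TMM, robust quasi-likelihood fit) in R 4.3.3 for genes and for transcripts, and diffSpliceDGE for usage, with Benjamini-Hochberg adjustment over all features. Alternatives were DESeq2 1.42.0, limma 3.58.1, other scalings and filters, a length correction, a block on replicate number and leaving out single libraries. The SE is the absolute log2 fold change over the square root of F. CPM are TMM-scaled counts, for transcripts with factors of their own. No 2 libraries of a group agreed within sampling noise (chi-square per degree of freedom 4.75 to 12.5). The scripts were tested on simulated data. Named were all members, their 3 most abundant and every called transcript, and the 4 genes of each list with the smallest adjusted p besides RRM2B, NME2 and SAMHD1. The values of some genes under this rule are not reported here. PCNA, the called S phase genes and IMPDH1 were named after their values were seen, and CDKN1A and MDM2 as a check. Members, lists and the transcript groups by exon were chosen with earlier results of these data known.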

Additional observations from a re-analysis of the deposited data

How the results depend on the processing

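These are counts at an adjusted p under 0.05. With library totals in place of TMM factors, the members lower went from 3 to 1, the members higher from 1 to 2, those past both limits from 0 to 1, member transcripts lower from 19 to 7 and higher from 9 to 14, and other nucleotide genes lower from 22 to 6 and higher from 7 to 16. Over all 11118 genes tested, those lower went from 1567 to 356 and those higher from 1292 to 3643. The same counts over all transcripts are not given here. With DESeq2 member transcripts higher went to 5, with the length trend removed other nucleotide genes higher went to 4, and with limma's diffSplice 1 member isoform switched in place of 0. Leaving out each library in turn gave 0 to 1 members higher, 2 to 4 members lower, 8 to 21 member transcripts lower, 3 to 10 higher, 16 to 24 other nucleotide genes lower, 3 to 8 higher and 0 to 2 member isoforms switched. With 2 libraries in a group the spread rests on 5 libraries.

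Of 117 values of the 9 members' log2 fold changes under these alternatives, 102 kept their direction and their side of the threshold. Values that changed sign did so with library totals alone at the gene level: RRM2 0.16, DCK 0.15, CAD 0.20 and UMPS 0.32. The same setting turned the transcripts ENST00000264705 (0.21) and ENST00000403525 (0.20) of CAD, ENST00000286648 (0.02), ENST00000503359 (0.008) and ENST00000504952 (0.026) of DCK, ENST00000331200 of DUT (0.48), ENST00000300738 (0.28) and ENST00000532170 (0.42) of RRM1, and ENST00000304567 (0.064), ENST00000360566 (0.033), ENST00000641198 (0.075) and ENST00000652660 (0.051) of RRM2. DUT ENST00000331200 also turned without single libraries, with log2 fold changes from -0.20 to 0.21. Deviations of same-numbered control and irradiated cultures correlated at -0.03, 0.27 and 0.10, and those of differently numbered cultures at -0.32 to 0.24. With 3 cultures per group these values cannot settle whether the replicate numbers pair the cultures. With the replicate block the counts were 4 members lower, 1 higher and 0 past both limits, 21 member transcripts lower and 10 higher, 24 other nucleotide genes lower and 9 higher, and 0 isoforms switched, and RRM2 was called lower (edgeR adjusted p = 0.0301). RRM2 was also called without control 3 (adjusted p = 0.0389). The cause of these changes was not tested. CAD, at 88 to 159 counts per library, and TYMS, at 62 to 272, were measured with the fewest counts.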
